A study of Mus musculus with 7 samples.

Results

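The genes described here are 40 genes of the cell cycle and DNA replication, 18 that act in S phase and 22 that act in G2 and M phase, out of 27179 genes counted in bone RNA. They were taken by name from the symbol column of the count files, and all 40 passed the filter on low counts, as did 15098 genes in all. A cell that divides first copies its DNA in S phase, when the MCM helicase opens origins and enzymes supply nucleotides, and then builds a spindle and separates its chromosomes in M phase. Transcription factors of the E2F family drive the S phase genes, and the MuvB complex with B-Myb and FoxM1 drives many of the G2 and M phase genes. Osteocytes, the cells embedded in bone, no longer divide, whereas the blood cell precursors of the marrow are among the most actively dividing cells of an adult mouse.

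RNA was extracted from the femoral cortical bone, with the ends cut off and the marrow flushed out, of 12-week-old female mice on a C57BL/6 background. The 3 Dmp1Cre.EfnB2f/f mice carried the Dmp1Cre transgene and floxed alleles of Efnb2, which encodes the membrane ligand EphrinB2. The 4 Dmp1Cre mice carried the same transgene without the floxed alleles, and served as controls. The transgene, driven by a stretch of the Dmp1 promoter, acts in osteocytes and late osteoblasts, so all other cells of the bone keep Efnb2, and both genotypes express Cre. The libraries are called f/f 1 to 3 and controls 1 to 4 below, after the replicate numbers of the labels. The labels also name the parent crosses: f/f 1 and 2 came from cross 76x78, controls 1 and 2 from cross 85x87, f/f 3 and control 3 from cross 47x42, and control 4 from cross 84x86.

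The counts summed to between 17245556 and 22075778 per library. Efnb2 itself went against the labels, with 17.9, 13.1 and 11.8 CPM in f/f 1, 2 and 3 and 8.49, 7.93, 6.44 and 6.36 CPM in controls 1 to 4, so that no f/f library was as low as any control (p = 0.0286 in an exact permutation test, two-sided, which is the lowest p that 3 against 4 libraries allow). The log2 fold change of Efnb2 was 0.96 ± 0.21 (SE), with an unadjusted edgeR p of 0.0016 and an adjusted p of 0.511. Efnb2 was called higher in f/f by DESeq2 (adjusted p = 0.0331). The study's limma pipeline, described below, also called it higher (adjusted p = 0.0162). The counts are per gene, so reads of the deleted exons cannot be told apart from the rest, and cells outside the osteocyte lineage keep Efnb2, so this level is no check of the deletion itself. The name f/f therefore stands only for what these 3 libraries are labelled, Dmp1Cre.EfnB2f/f. The paper reports PCR of the targeted region in sorted osteocytes of younger mice that also carried a GFP transgene. By its account Efnb2 was effectively targeted in those osteocytes and retained in other cells. The osteocyte genes Dmp1, Mepe, Sost and Phex were detected in all 7 libraries. On the first principal component of log2 expression, with 53.9% of the variance, controls 1 and 4 stood apart at 43.9 and 68.8, and the other 5 libraries lay between -41.4 and -1.76. Medians, counts and the genes most affected are given below also without controls 1 and 4. Replicates within a genotype all differed by more than sampling noise (chi-square per degree of freedom, 28.9 to 226).

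Both sets of genes are known for short promoter elements, which are shown here for 4 genes of each phase because the levels described below differed between genes within a phase. Promoters of 300 bases (250 before to 50 after the transcription start, RefSeq, GRCm38.p6) were listed for 31 of the 40 genes, as 32 promoters. The CHR element TTTGAA was read on both strands. It was in 13 of 17 promoters of G2 and M phase genes (76.5%), in 1 of 15 promoters of S phase genes (6.67%, Mcm2), and in 17.9% of all 32851 promoters. The E2F motif was searched as TTTCCCGC, TTTCGCGC, TTTGCCGC or TTTGGCGC on both strands. It was in 6 of 15 promoters of S phase genes (40%), in 1 of 17 of G2 and M phase genes (5.88%, Cdk1), and in 2.26% of all promoters. The CCAAT box, CCAAT on either strand, was in 16 of 17 G2 and M phase promoters (94.1%), 9 of 15 S phase promoters (60%) and 37.4% of all. In 1 promoter of a listed gene, matches of different motifs overlapped. A match is a match of letters and not a measured binding site. The 160 bases before the start of a listed transcript, which can lie within the span of the gene, are printed 5′ to 3′ along the gene's own strand, with every match to these 3 motifs in capitals. For S phase they are those of Cdc6 (chr11:98907991-98908150, plus strand), Mcm5 (chr8:75109349-75109508, plus strand), Mcm6 (chr1:128359706-128359865, minus strand) and Hells (chr19:38930830-38930989, plus strand). For G2 and M phase they are those of Cdc20 (chr4:118437344-118437503, minus strand), Cdk1 (chr10:69352913-69353072, minus strand), Mki67 (chr7:135716380-135716539, minus strand) and Kif11 (chr19:37376222-37376381, plus strand).
Cdc6: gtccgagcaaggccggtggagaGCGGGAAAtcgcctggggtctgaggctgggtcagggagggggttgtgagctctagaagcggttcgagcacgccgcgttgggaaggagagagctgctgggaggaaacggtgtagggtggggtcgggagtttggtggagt
Mcm5: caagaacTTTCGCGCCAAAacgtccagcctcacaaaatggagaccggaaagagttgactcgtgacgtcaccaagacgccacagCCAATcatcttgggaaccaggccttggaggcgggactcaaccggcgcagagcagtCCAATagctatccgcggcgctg
Mcm6: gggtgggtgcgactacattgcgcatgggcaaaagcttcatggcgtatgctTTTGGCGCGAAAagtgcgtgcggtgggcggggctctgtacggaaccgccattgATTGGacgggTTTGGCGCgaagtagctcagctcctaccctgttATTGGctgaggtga
Hells: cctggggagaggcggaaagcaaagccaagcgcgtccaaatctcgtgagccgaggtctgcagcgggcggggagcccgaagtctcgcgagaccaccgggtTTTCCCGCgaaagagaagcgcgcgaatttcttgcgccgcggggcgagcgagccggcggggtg
Cdc20: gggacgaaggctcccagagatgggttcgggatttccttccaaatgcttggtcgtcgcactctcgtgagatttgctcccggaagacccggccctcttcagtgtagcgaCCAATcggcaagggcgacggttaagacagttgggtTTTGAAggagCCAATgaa
Cdk1: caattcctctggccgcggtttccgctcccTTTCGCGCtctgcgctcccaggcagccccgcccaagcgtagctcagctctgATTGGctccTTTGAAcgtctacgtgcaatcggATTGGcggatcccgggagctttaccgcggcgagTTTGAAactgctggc
Mki67: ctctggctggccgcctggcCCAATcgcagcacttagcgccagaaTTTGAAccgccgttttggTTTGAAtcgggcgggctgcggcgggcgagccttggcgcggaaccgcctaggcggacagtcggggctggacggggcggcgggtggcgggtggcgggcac
Kif11: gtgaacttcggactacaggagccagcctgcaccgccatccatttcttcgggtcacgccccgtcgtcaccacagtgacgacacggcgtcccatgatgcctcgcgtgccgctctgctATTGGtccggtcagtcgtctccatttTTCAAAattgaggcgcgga
All 4 S phase genes carry E2F matches, in Mcm5 and in Mcm6 as overlapping matches on opposite strands. Cdc20, Cdk1 and Mki67 carry TTTGAA and Kif11 its reverse complement TTCAAA, in each case with at least 1 CCAAT box before the start.

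RNA of all 40 genes was found in every library, with no fewer than 193 counts for any gene in any library. Levels were compared between genes per kilobase of the counted exons. The highest mean levels in the controls were those of Ube2c, the ubiquitin-conjugating enzyme of the anaphase-promoting complex, at 163 ± 54.4 CPM per kilobase (SD, n = 4), and of Mki67, the proliferation antigen Ki-67, at 152 ± 79.1 CPM per kilobase. Mcm7, Rrm2, Top2a, Pcna, Mcm6 and Mcm5 followed, from 136 down to 113 CPM per kilobase, so helicase, nucleotide and chromosome genes were represented near the top. These 8 could not be ordered beyond the spread of the controls, since the SD of Ube2c alone spans all of them. The lowest were Ccne2 at 9.43 ± 4.36, Bub1 at 10.95 ± 5.599 and Hells at 11.4 ± 5.96 CPM per kilobase, which also lay within each other's spread.

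The comparison between the genotypes asks whether bone from mice bred to lose Efnb2 in osteocytes differs in its RNA. None of the 40 genes passed the threshold of an adjusted p under 0.05, with edgeR's quasi-likelihood test adjusted over all 15098 genes. Among all genes 0 were called higher (0%) and 0 lower (0%), while DESeq2 called 24 genes higher (0.159%) and 48 lower (0.318%), of which 0 were among the 40. Nevertheless, 39 of the 40 fitted log2 fold changes lay below 0, and the 40th, Cenpf, was at 0.01, where 7347 of all 15098 genes lay below 0. The median log2 fold change was -0.54 over the S phase genes and -0.35 over the G2 and M phase genes, against 0.01 over all genes. Without control 4 these medians were -0.32 and -0.23, and in a fit with a block for the parent cross -0.13 and -0.16. At an unadjusted p under 0.05, 4 of 18 S phase genes (22.2%) and 3 of 22 G2 and M phase genes (13.6%) were lower, against 5.03% of all genes, and 0 of the 40 were higher, against 4.63% of all genes. In 7 of the 40 genes (17.5%) all 3 libraries labelled Dmp1Cre.EfnB2f/f were below all 4 controls, against 6.3% of all genes, and in 0 were they above, against 5.05%. Over the 40 genes the adjusted p ran from 0.511 to 0.999, and the two-sided exact permutation test gave p from 0.0571, for Cdc6, up to 1. In bulk RNA, fewer cells in cycle and less RNA per cell cannot be told apart.

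**Figure D1:**
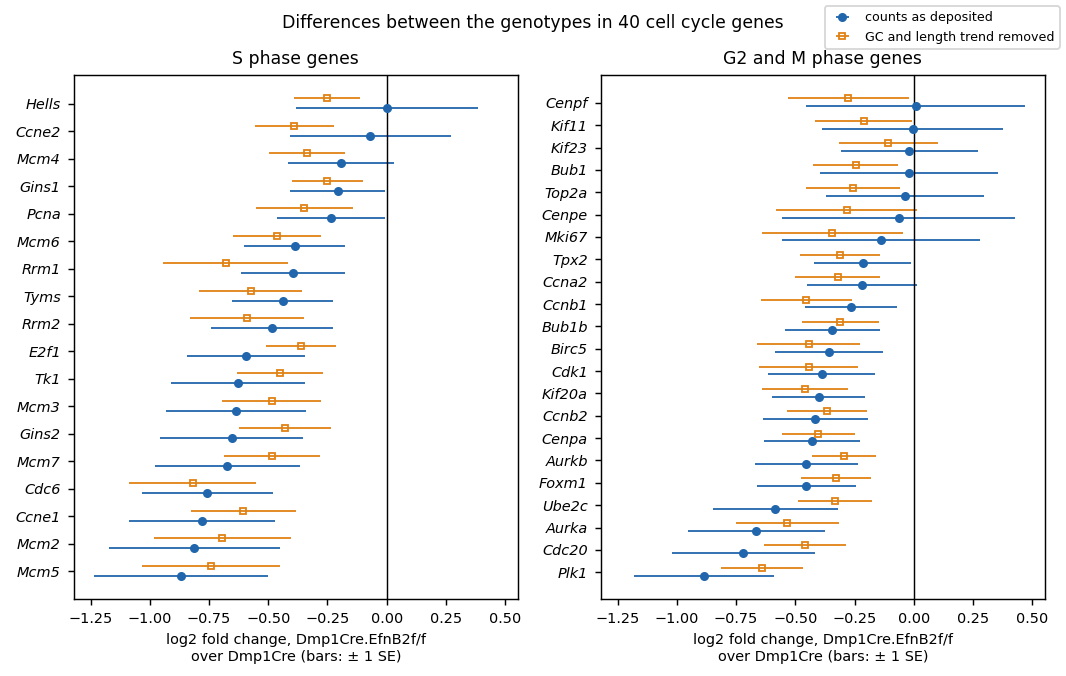
Log2 fold change (x axis) of each of the 18 S phase genes (left) and 22 G2 and M phase genes (right), libraries labelled Dmp1Cre.EfnB2f/f (n = 3) over Dmp1Cre (n = 4), with bars of ± 1 SE. Filled circles are the fit to the counts as deposited and open squares the fit after removal of trends with GC content and length. Circles run from -0.89 for Plk1 to 0.01 for Cenpf, and all 40 squares lie below 0.

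Cdc6, which loads the helicase onto origins (Entrez gene 23834, chr11:98907709-98923942, GRCm38), was at 74.2, 86.5 and 122 CPM in f/f 1, 2 and 3 and 129, 133, 140.1 and 236 CPM in controls 1 to 4. The groups did not overlap, f/f 1 and 2 were furthest below and control 4 was far above the other controls. The means were 94.4 ± 25.002 CPM in f/f (SD, n = 3) and 159.6 ± 51.4 CPM in Dmp1Cre (SD, n = 4), with a log2 fold change of -0.76 ± 0.28 (SE), an unadjusted edgeR p of 0.0236 and an adjusted p of 0.511. Ccne1, cyclin E1, the partner of Cdk2 at the start of S phase (chr7:38097984-38107490), was at 40.4, 49.5 and 66.9 CPM in f/f 1, 2 and 3 and 71.4, 74.6, 69.6 and 143 CPM in controls 1 to 4. All f/f libraries were below all controls, f/f 3 by a small margin. Its log2 fold change was -0.78 ± 0.31 (SE), with an unadjusted edgeR p of 0.0326 and an adjusted p of 0.511. E2f1, a transcription factor that induces S phase genes, was at 23.1, 22.5 and 33.2 CPM in f/f 1, 2 and 3 and 39.1, 32.2, 31.8 and 55.3 CPM in controls 1 to 4. Its f/f 3 lay above controls 2 and 3, so the groups overlapped, and its log2 fold change was -0.59 ± 0.25 (SE) with an unadjusted edgeR p of 0.0425. Ccne2, the second cyclin E, was at 28.8, 27.97 and 29.9 CPM in f/f 1, 2 and 3 and 17.5, 41.4, 43.6 and 19.0 CPM in controls 1 to 4. Here control 1 and control 4 were the lowest libraries and controls 2 and 3 the highest, with the f/f libraries between, so its log2 fold change of -0.07 ± 0.34 (SE) was far within its error.

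The 6 subunits of the MCM helicase, which unwinds DNA at the fork, all had log2 fold changes below 0. Mcm5 (chr8:75109468-75128439), whose promoter is printed above, was at 166, 196 and 270.3 CPM in f/f 1, 2 and 3 and 346, 257, 270.4 and 666 CPM in controls 1 to 4. The levels of f/f 3 and control 3 were all but equal, f/f 1 and 2 were below every control, and control 4 was the highest by a wide margin. Its log2 fold change of -0.87 ± 0.37 (SE) was the lowest of the S phase genes, with an unadjusted edgeR p of 0.0435 and an adjusted p of 0.511. Mcm2 was at 136, 157 and 226 CPM in f/f 1, 2 and 3 and 265, 210.2, 216 and 523 CPM in controls 1 to 4. Its pattern over the 7 libraries was that of Mcm5, with a log2 fold change of -0.81 ± 0.36 (SE) and an unadjusted edgeR p of 0.0525. Mcm7 and Mcm3 followed at -0.67 ± 0.31 (SE) and -0.64 ± 0.30 (SE), and Mcm6 at -0.39 ± 0.21 (SE). Mcm4 was the subunit nearest to 0, at -0.19 ± 0.22 (SE), and unlike Mcm5 it was lower in controls 1 and 4 than in controls 2 and 3. The GINS subunits, which join MCM in the active helicase, were split in the same manner, with log2 fold changes of -0.66 ± 0.30 (SE) for Gins2 and -0.21 ± 0.20 (SE) for Gins1.

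Pcna, the sliding clamp that holds the polymerase on DNA, was at 103, 129 and 159 CPM in f/f 1, 2 and 3 and 109, 159, 160.1 and 187 CPM in controls 1 to 4. The groups overlapped widely, and the log2 fold change was -0.24 ± 0.23 (SE). Among the enzymes of nucleotide supply, Tk1, the thymidine kinase of the salvage pathway, was at 74.5, 87.7 and 84.0 CPM in f/f 1, 2 and 3 and 113, 94.7, 96.7 and 203 CPM in controls 1 to 4. The groups did not overlap, and f/f 3 was lower than f/f 2, which was not the case for Cdc6 or Ccne1. Its log2 fold change was -0.63 ± 0.28 (SE), with an unadjusted edgeR p of 0.0542. Rrm2, the regulated subunit of ribonucleotide reductase, was at 167, 191 and 273 CPM in f/f 1, 2 and 3 and 207, 291, 305 and 373 CPM in controls 1 to 4. Its f/f 1 and 2 were below every control and f/f 3 above control 1, and the log2 fold change was -0.48 ± 0.26 (SE). Tyms, thymidylate synthase, was at 38.4, 44.6 and 52.5 CPM in f/f 1, 2 and 3 and 46.0, 58.5, 61.4 and 79.0 CPM in controls 1 to 4, with f/f 3 again above control 1 and a log2 fold change of -0.44 ± 0.21 (SE). Rrm1, the large reductase subunit, was at a log2 fold change of -0.40 ± 0.22 (SE). Hells, a chromatin remodeller needed for DNA methylation, was at 39.5, 32.2 and 31.9 CPM in f/f 1, 2 and 3 and 19.4, 47.7, 52.4 and 18.7 CPM in controls 1 to 4. It had the order of Ccne2, with controls 1 and 4 lowest, and its log2 fold change was -0.00 ± 0.38 (SE), the highest of the S phase genes.

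**Figure D2:**
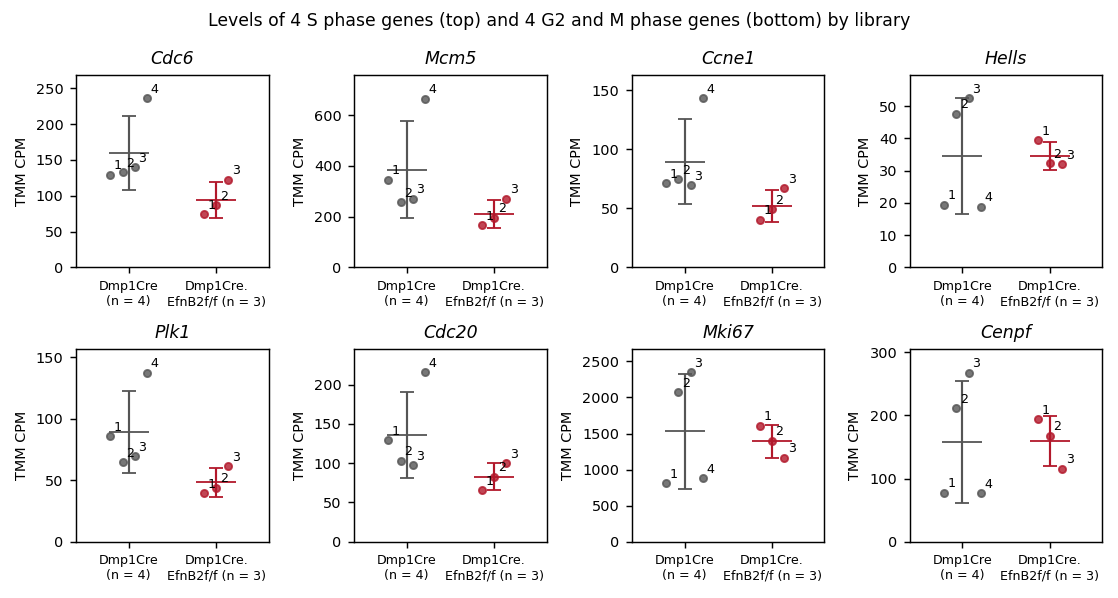
Level in TMM CPM (y axis, from 0) of Cdc6, Mcm5, Ccne1 and Hells (S phase, top) and Plk1, Cdc20, Mki67 and Cenpf (G2 and M phase, bottom) in each Dmp1Cre library (n = 4, grey) and each library labelled Dmp1Cre.EfnB2f/f (n = 3, red), numbered by replicate, with the mean and SD. Control 4 is the highest library for Cdc6, Mcm5, Ccne1, Plk1 and Cdc20, at 666 CPM for Mcm5, whereas controls 1 and 4 are the lowest for Hells, Mki67 and Cenpf.

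For the kinases of mitotic entry and the aurora kinases, the f/f means were below those of the controls. Plk1, polo-like kinase 1 (Entrez gene 18817, chr7:122159435-122169884), was at 39.6, 43.9 and 61.5 CPM in f/f 1, 2 and 3 and 85.7, 64.5, 69.5 and 137 CPM in controls 1 to 4. The groups did not overlap, with f/f 3 just below control 2, and control 4 was the highest. The means were 48.3 ± 11.6 CPM in f/f (SD, n = 3) and 89.3 ± 33.3 CPM in Dmp1Cre (SD, n = 4). Its log2 fold change of -0.89 ± 0.30 (SE) was the lowest of all 40 genes, with an unadjusted edgeR p of 0.0158 and an adjusted p of 0.511. Aurka, aurora kinase A of the spindle poles, was at 49.1, 53.6 and 82.1 CPM in f/f 1, 2 and 3 and 81.0, 84.4, 76.7 and 148 CPM in controls 1 to 4. Its f/f 1 and 2 were well below the controls and f/f 3 lay among them, for a log2 fold change of -0.66 ± 0.29 (SE) and an unadjusted edgeR p of 0.0491. Aurkb, aurora kinase B of the chromosomal passenger complex, was at 72.3, 77.3 and 91.2 CPM in f/f 1, 2 and 3 and 96.2, 91.7, 98.4 and 153 CPM in controls 1 to 4. The groups were separate by a narrow margin, and the log2 fold change was -0.45 ± 0.22 (SE). Birc5, survivin of the same complex, was at -0.36 ± 0.23 (SE), and Tpx2, the activator of Aurka at the spindle, at -0.22 ± 0.21 (SE).

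For the cyclin-dependent kinase and its cyclins, the log2 fold changes were nearer to 0. Cdk1, the kinase that drives entry into mitosis, was at 97.1, 115 and 135 CPM in f/f 1, 2 and 3 and 126, 131, 138 and 209 CPM in controls 1 to 4. Control 4 was far above all others, f/f 3 lay among controls 1 to 3, and the log2 fold change was -0.39 ± 0.22 (SE). Ccnb1, cyclin B1, was at 51.2, 61.5 and 68.0 CPM in f/f 1, 2 and 3 and 53.3, 76.5, 76.7 and 83.3 CPM in controls 1 to 4, with a log2 fold change of -0.27 ± 0.20 (SE). Control 1 was lower than f/f 2 and 3, so the groups overlapped. Ccnb2, cyclin B2, was at 94.8, 124 and 137 CPM in f/f 1, 2 and 3 and 134, 141, 145 and 214 CPM in controls 1 to 4, with f/f 3 above control 1 and a log2 fold change of -0.42 ± 0.22 (SE). Ccna2, cyclin A2, was at -0.22 ± 0.23 (SE). Foxm1, the transcription factor of many G2 and M phase genes, was at 52.4, 53.0 and 70.8 CPM in f/f 1, 2 and 3 and 73.5, 68.0, 73.9 and 106 CPM in controls 1 to 4. Only f/f 3 reached the controls, and its log2 fold change was -0.45 ± 0.21 (SE).

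Of the genes for leaving mitosis, Cdc20, the activator of the anaphase-promoting complex, was at 65.6, 82.6 and 99.99 CPM in f/f 1, 2 and 3 and 129, 103, 97.3 and 216 CPM in controls 1 to 4. Its f/f 1 and 2 were below every control and f/f 3 lay between controls 2 and 3, for a log2 fold change of -0.72 ± 0.30 (SE) and an unadjusted edgeR p of 0.0428. Ube2c was at -0.59 ± 0.26 (SE), with f/f 3 above control 3. Kif20a, a kinesin of the central spindle, was at 64.0, 80.1 and 86.5 CPM in f/f 1, 2 and 3 and 86.6, 90.01, 99.4 and 129.99 CPM in controls 1 to 4. Its f/f 3 was all but equal to control 1, so the groups were only just separate, and the log2 fold change was -0.40 ± 0.20 (SE). Cenpa, the histone variant of centromeres, was at 69.3, 76.2 and 83.5 CPM in f/f 1, 2 and 3 and 92.4, 90.5, 88.2 and 140.3 CPM in controls 1 to 4, without overlap and with a log2 fold change of -0.43 ± 0.20 (SE).

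A further set of chromosome, kinetochore and spindle genes had log2 fold changes that were far within their errors. Mki67 (Entrez gene 17345, chr7:135689784-135716450) was at 1610.3, 1398 and 1162 CPM in f/f 1, 2 and 3 and 810.1, 2074, 2350.4 and 883 CPM in controls 1 to 4. The f/f libraries lay between controls 1 and 4, which were low, and controls 2 and 3, which were high. The means were 1390.0 ± 224 CPM in f/f (SD, n = 3) and 1529 ± 797 CPM in Dmp1Cre (SD, n = 4), and the log2 fold change of -0.14 ± 0.42 (SE) had an unadjusted edgeR p of 0.749. Top2a, the topoisomerase that untangles chromosomes, was at 608, 641 and 704 CPM in f/f 1, 2 and 3 and 391, 880.3, 936 and 468 CPM in controls 1 to 4, with the same order and a log2 fold change of -0.04 ± 0.33 (SE). Cenpf, a large kinetochore protein, was at 194, 168 and 116 CPM in f/f 1, 2 and 3 and 77.6, 212, 267 and 76.5 CPM in controls 1 to 4. Its log2 fold change of 0.01 ± 0.46 (SE) was the highest of the 40. The kinetochore motor Cenpe (-0.06 ± 0.49), the checkpoint kinase Bub1 (-0.02 ± 0.38), the spindle motor Kif11 (-0.01 ± 0.38) and the cytokinesis motor Kif23 (-0.02 ± 0.29) were all within 0.07 of 0 on the log2 scale, with an SE, given after each value, several times larger. Bub1b, the partner of Bub1 in the spindle checkpoint, was at a log2 fold change of -0.34 ± 0.20 (SE).

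The controls therefore did not vary in the same way for all 40 genes. Controls 1 and 4 were both above controls 2 and 3 for 11 genes (27.5%, against 36.3% of all genes), among them Mcm2, Mcm3, Mcm5, Mcm7, E2f1, Tk1, Plk1 and Cdc20. They were both below for 12 genes (30%, against 32.9% of all), among them Hells, Ccne2, Mki67, Top2a, Cenpe, Cenpf, Bub1, Kif11 and Kif23. The log2 ratio of controls 1 and 4 over controls 2 and 3 ran from -1.83 for Cenpe and -1.63 for Cenpf to 0.74 for Cdc20 and 0.86 for Mcm5. Over the 40 genes this ratio was higher where the GC content of the transcript was higher, with a Spearman correlation of 0.90 (0.82 over 18 S phase genes, 0.92 over 22 G2 and M phase genes), and over 14888 genes with a GC content it was 0.70. The median GC content was 51.9% in the 23 genes higher in controls 1 and 4 and 44.2% in the 17 that were lower. Against the length of the counted exons the correlation was -0.54 over the 40 genes, -0.13 over the S phase genes, -0.82 over the G2 and M phase genes and -0.19 over all genes. These correlations are across genes of the same 4 libraries, which are no independent replicates.

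**Figure D3:**
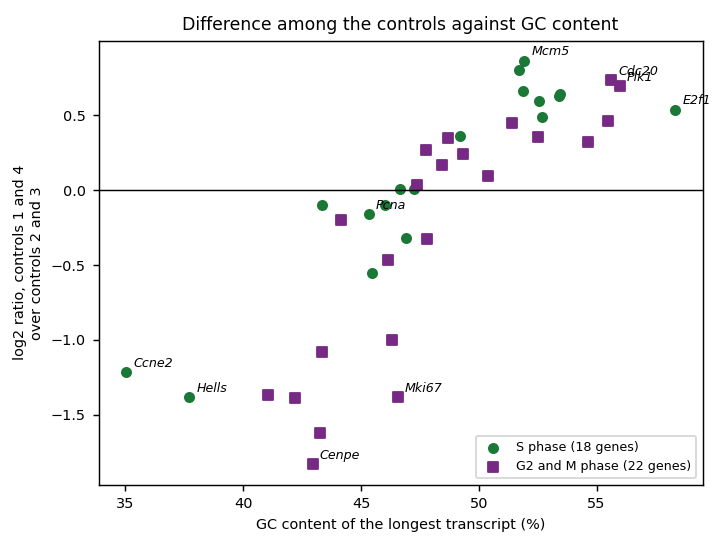
Log2 ratio of the mean level in controls 1 and 4 over that in controls 2 and 3 (y axis) against the GC content of the longest transcript in percent (x axis), for 18 S phase genes (circles) and 22 G2 and M phase genes (squares). Genes of low GC content such as Hells, Ccne2 and Cenpe lie below 0, down to -1.83, and genes of high GC content such as Mcm5, Plk1 and Cdc20 lie above 0, up to 0.86.

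Since GC content moved with the levels, the comparison was repeated after removing, library by library, the smooth dependence on GC content and on length over 14888 genes. All 40 log2 fold changes were then below 0, with medians of -0.47 over the S phase genes and -0.33 over the G2 and M phase genes. The unadjusted p was under 0.05 in 13 of 18 S phase genes and 6 of 22 G2 and M phase genes, against 7.88% of all genes in that direction, and 0 were called by edgeR's adjusted p. Without overlap, 5 S phase genes (Cdc6, Mcm5, Mcm7, Tyms and Tk1) and 5 G2 and M phase genes (Ccnb1, Plk1, Cenpa, Kif20a and Cdc20) were lower, against 8.82% of all genes. Some margins were very narrow, with adjusted levels of 258.4 in f/f 3 and 258.8 CPM in control 1 for Mcm7. For Mcm5 they were 277.5 in f/f 3 and 278.7 CPM in control 2. The margin was wider for Cdc6, at 122 in f/f 3 and 135 CPM in control 1. For Mki67 the log2 fold change became -0.34 ± 0.30 (SE), for Cenpf -0.28 ± 0.26, for Hells -0.25 ± 0.14 and for Ccne2 -0.39 ± 0.17. For genes of high GC content it moved towards 0, to -0.64 ± 0.17 for Plk1 and -0.46 ± 0.17 for Cdc20. After this step f/f 1 was below all 4 controls for 18 of 18 S phase genes and 16 of 22 G2 and M phase genes, f/f 2 for 17 and 14, and f/f 3 for 5 and 5. Of all genes 28% were so in f/f 1, 23.1% in f/f 2 and 17.8% in f/f 3.

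Leaving out controls 1 and 4 left 3 against 2 libraries. All 40 log2 fold changes were below 0, the medians were -0.36 for S phase and -0.35 for G2 and M phase, and the unadjusted p was under 0.05 in 8 of 18 and 11 of 22 genes, against 7.17% of all genes in that direction. The adjusted p passed the threshold in 0 of the 40 with edgeR. Without these libraries Mki67 was at -0.67 ± 0.20 (SE), Cenpe at -0.70 ± 0.17 and Bub1 at -0.54 ± 0.10, where the fit to all 7 libraries had given values near 0. Other genes came closer to 0. Mcm2 was at -0.30 ± 0.21, Mcm5 at -0.32 ± 0.20, Tk1 at -0.22 ± 0.10 and E2f1 at -0.28 ± 0.18. Cdc6 was at -0.53 ± 0.20, Ccne1 at -0.46 ± 0.20, Plk1 at -0.47 ± 0.19, Aurka at -0.38 ± 0.22 and Cdc20 at -0.27 ± 0.17. The study's own limma pipeline weights each library by its quality, and here gave controls 1 and 4 weights of 0.193 and 0.168 and the other 5 libraries 0.713 to 7.28. Run without the day of collection, which the labels do not give, it called 10 S phase genes and 4 G2 and M phase genes lower at an adjusted p under 0.05, against 7.39% of all genes. Without the weights it called 0 of the 40, and 0 of all 15098 genes in either direction.

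**Figure D4:**
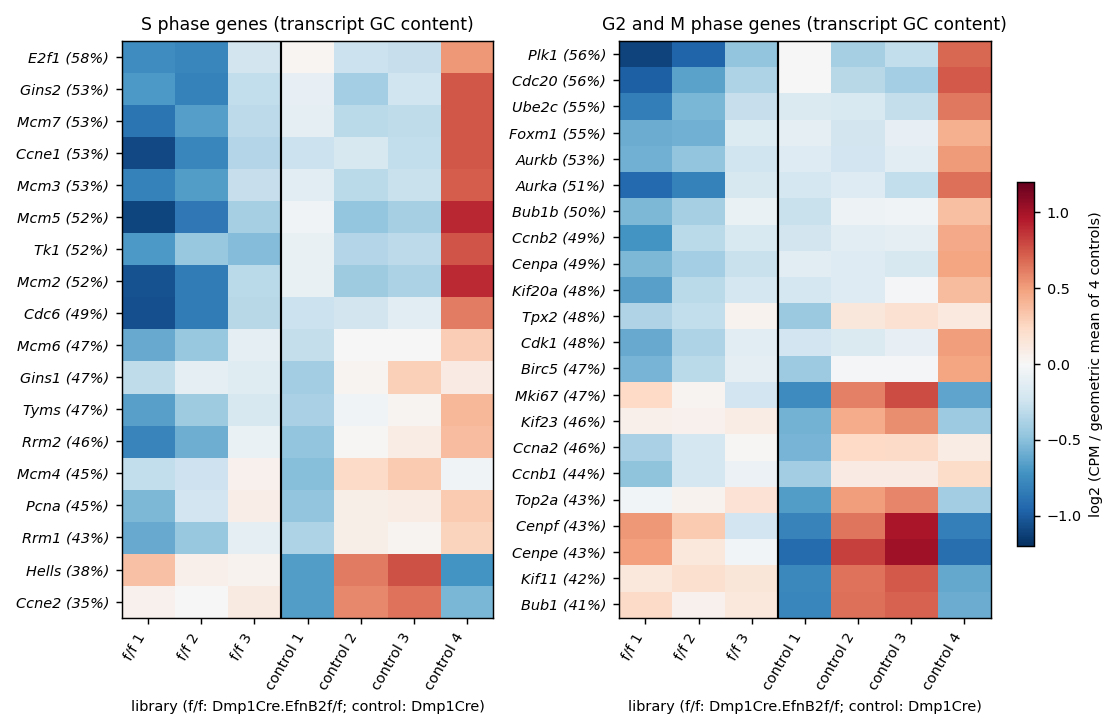
Level of each gene in each library as log2 of its CPM over the geometric mean of the 4 controls (colour, blue below and red above), for S phase genes (left) and G2 and M phase genes (right), with genes ordered by the GC content of the transcript given beside the name. The line separates f/f 1 to 3 from controls 1 to 4. Control 4 is red for genes of high GC content, and also for some of lower GC content such as Rrm1, Ccnb1 and Pcna. Among the genes where it is blue are Hells, Ccne2, Mki67, Top2a, Cenpe, Cenpf, Bub1, Kif11 and Kif23.

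The 3 libraries labelled Dmp1Cre.EfnB2f/f did not contribute equally. The library f/f 1 was below all 4 controls for 27 of the 40 genes and f/f 2 for 24, against 23.9% and 19.9% of all genes. The library f/f 3 was so for 7, or 17.5%, against 12.7% of all genes. The summed level of the S phase genes was 1837, 2069 and 2674 CPM in f/f 1, 2 and 3 and 2599, 2812, 2877 and 4527 CPM in controls 1 to 4. The f/f 1 and 2 sums were below every control, f/f 3 was above control 1, and control 4 was far above the rest. For the G2 and M phase genes it was 4144, 4104 and 4155 CPM and 3134, 5641, 6101 and 4298 CPM, a sum in which Mki67 alone is a large share, and the f/f libraries lay within the controls.

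The libraries f/f 1 and 2 came from a cross with no control, so their difference from the controls cannot be told apart from a difference between crosses. The only cross with both genotypes was that of f/f 3 and control 3, so that contrast rests on 1 library of each. There f/f 3 was below control 3 for 35 of the 40 genes (87.5%), against 49.4% of all genes, with a median log2 ratio of -0.15 (-0.13 over S phase, -0.16 over G2 and M phase genes). The ratio was -1.21 for Cenpf, -1.05 for Cenpe and -1.02 for Mki67, and it was -0.20 for Cdc6 and -0.18 for Plk1. For Mcm3, Mcm5 and Pcna it was within 0.01 of 0, and for Cdc20 it was 0.04. In edgeR with a block for the cross, which takes its spread from the pairs of libraries of crosses 76x78 and 85x87, 0 of the 40 had an unadjusted p under 0.05. Of all 15098 genes, 308 did, in either direction.

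The 48 other replication genes listed, of origin recognition, polymerases, clamp loading and repair at forks, were tested in the same way. For 37 of 48 the log2 fold change was below 0, the median was -0.25, 4 (8.33%, against 5.03% of all genes) had an unadjusted edgeR p under 0.05 and were lower (Cdt1, Lig1, Chaf1b and Dut), and 0 were higher. In 3 of the 48 (6.25%) the f/f libraries were all below the controls, against 6.3% of all genes. Cdt1, which loads MCM together with Cdc6, was at 87.5 ± 14.4 CPM in f/f (SD, n = 3) and 142 ± 51.6 CPM in the controls (SD, n = 4), and the replication ligase Lig1 was at a log2 fold change of -0.59 ± 0.24 (SE). Of the 48 other mitotic genes 33 were below 0, with a median of -0.14. Without overlap, 8 (16.7%) were lower, against 6.3% of all genes. At an unadjusted p under 0.05, 3 (6.25%) were lower, against 5.03% of all genes. The 3 were Cdc25b (-0.79 ± 0.33), the phosphatase that activates Cdk1, Espl1 (-0.62 ± 0.24), the separase, and Mybl2 (-0.66 ± 0.24), which encodes B-Myb. TTTGAA was in 32 of 45 promoters of these mitotic genes (71.1%) and 7 of 45 of the other replication genes (15.6%). A G1 list held 28 genes, with cyclins, kinases, inhibitors and E2F family members among them. Of these 27 passed the filter, and the median was -0.09. At an unadjusted p under 0.05, 3 (11.1%, against 5.03% of all genes) were lower (Cdkn2d, E2f2 and E2f7). In the other direction 1 (3.7%) was higher, against 4.63% of all genes. That gene was Cdkn1c, the inhibitor p57, at 15.9 ± 0.842 CPM in f/f (SD, n = 3) and 11.1 ± 1.91 CPM in the controls (SD, n = 4), without overlap. Of the 27 genes, 3.7% were higher without overlap, against 5.05% of all genes, and 14.8% lower, against 6.3%. None of these genes passed the adjusted threshold with edgeR.

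Flushed bone can hold blood cell precursors, which divide, so their markers were tested as well. Of 12 erythroid precursor markers, 11 were found in the files and tested. All 11 were below 0, against 48.7% of all genes, with a median log2 fold change of -0.58. At an unadjusted edgeR p under 0.05, 4 were lower (36.4%, against 5.03% of all genes). Their summed level was 5386, 10669 and 11459 CPM in f/f 1, 2 and 3 and 15854, 13218, 14828 and 33368 CPM in controls 1 to 4, lowest in f/f 1 and highest in control 4, as for Cdc6, Mcm5 and Plk1. All 6 granulocyte precursor markers were below 0 too, with a median of -0.60 and 3 at an unadjusted p under 0.05 (50%, against 5.03% of all genes). Their sum was 2084, 1995 and 2634 CPM and 3745, 2496, 2393 and 4573 CPM, highest in controls 1 and 4, and f/f 3 was above controls 2 and 3. Within the shared cross, f/f 3 was below control 3 for 9 of the 11 erythroid markers (median log2 ratio -0.31), against 49.4% of all genes. It was below control 3 for 0 of these 6 (median 0.07). The 8 late granulocyte markers had a median of -0.50, with sums of 11527, 14949 and 13941 CPM and 17098, 19059, 17096 and 18456 CPM that did not overlap. Within the shared cross f/f 3 was below control 3 for 8 of these 8 (median log2 ratio -0.29). None of the markers of these 3 lists was at 0 in any library, so RNA of these marrow cells was present in every flushed bone. The 12 B precursor markers, of another dividing marrow lineage, did not follow, with a median of 0.18 and sums of 425, 413 and 421 CPM and 422, 275, 268 and 466 CPM. Within the shared cross f/f 3 was below control 3 for 0 of these 12 (median log2 ratio 0.84). The 6 megakaryocyte markers had a median of -0.13. The 9 osteoblast markers had a median of -0.07 and the 6 osteocyte markers of 0.18, the 6 osteoclast markers of 0.13 and the 6 endothelial markers of 0.38. The osteoblast sums varied widely, at 15091, 18258 and 24824 CPM in f/f 1, 2 and 3 and 72153, 14504, 14781 and 35642 CPM in controls 1 to 4. In control 1 the median log2 ratio to the geometric mean of the controls was 1.26, 1.29 and 1.28 for the osteoblast, osteocyte and osteoclast lists. All 6 endothelial markers were above 0, with 3 at an unadjusted p under 0.05 (50%, against 4.63% of all genes). Without overlap, 3 were higher (50%, against 5.05% of all genes). None of the markers passed the adjusted threshold with edgeR. The 8 skeletal muscle markers were all above 0, with a median of 0.75 and 4 at an unadjusted p under 0.05 (50%, against 4.63% of all genes). Their sums were 26085, 39906 and 29240.1 CPM and 12518, 12187, 27789 and 14016 CPM. The part of these cell types in the levels of the cell cycle genes was not tested.

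**Figure D5:**
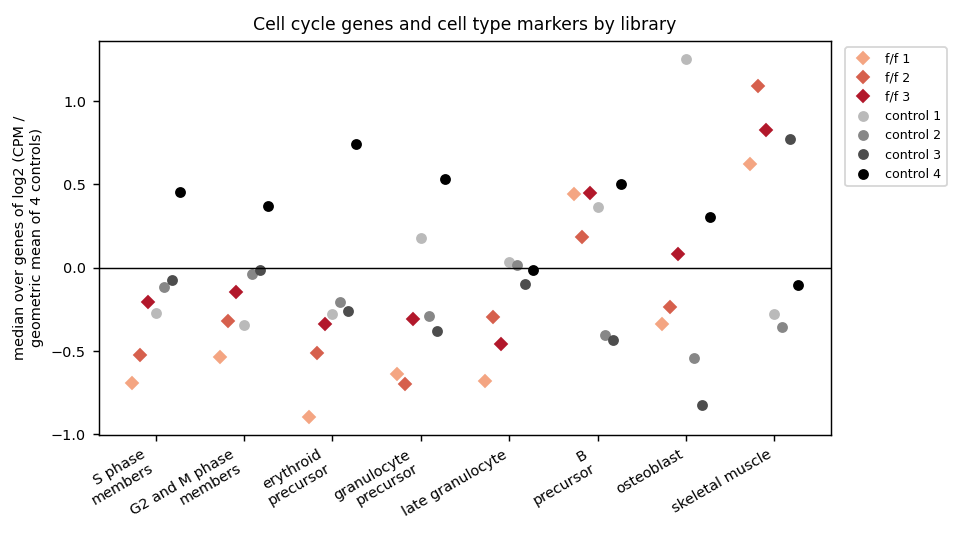
Median over the genes of each list of log2 of the level over the geometric mean of the 4 controls (y axis), in each library labelled Dmp1Cre.EfnB2f/f (red diamonds, n = 3) and each Dmp1Cre library (grey circles, n = 4), for the S phase genes, the G2 and M phase genes and 6 lists of cell type markers. The S phase genes lie at -0.69 in f/f 1 and 0.46 in control 4, and the erythroid precursor list is likewise lowest in f/f 1 and highest in control 4.

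Some of the counts can be shared with neighbours or copies. The spans of 14 of the 40 genes overlap another gene in RefSeq, among them Tk1 with Afmid, Cdc20 with Elovl1, Aurka with Cstf1, Kif20a with Cdc23 and Brd8, E2f1 with Necab3, Mcm7 with Ap4m1 and Ccne2 with Ints8. The strand setting of the counting was not stated, so reads on exons shared by opposite strands are uncertain. Ccnb1 and Tyms have counted pseudogene copies, with 379 to 822 counts for Ccnb1-ps beside 921 to 1532 for Ccnb1, and 93 to 332 counts for Tyms-ps beside 690 to 1453 for Tyms, so the levels of these genes are uncertain to that extent.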

How the data were processed

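RNA was sequenced from the flushed femora of 7 mice as paired-end reads. Bases were called with bcl2fastq 2.17.1.14, per the submitters' processing notes. Rsubread was used by the authors to map reads to mm10. They counted them on its inbuilt Entrez annotation with featureCounts, and deposited raw counts per gene for 27179 genes, without filter or pooling. Versions of the mapper and the counter, and the strand setting, are not given in the sources used here. Groups were taken from the genotype labels. Nothing in the labels says more of the replicates than a parent cross. The paper states that bones of both genotypes were collected on a first and a second day, with a single sample per genotype on the second. Its model had the day as a block. Which library came from which day is not in the labels. The p-values therefore measure the spread between these libraries, which holds any differences between mice, crosses and days.

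A gene was kept if 3 or more libraries reached 0.65 CPM (16302 genes). Of these, 1204 were not tested. They were immunoglobulin segments, predicted genes, pseudogenes, Y chromosome genes and Xist, which the study left out too, 4 ribosomal RNA genes, which is how its term for ribosomal genes was read, and 184 genes without a symbol, taken here in place of its obsolete identifiers. The 15098 others were tested with edgeR 4.0.16 (TMM, robust quasi-likelihood test) in R 4.3.3, with Benjamini-Hochberg adjustment over all of them and a threshold of 0.05. CPM in the text are counts scaled to the TMM library size, and the SE of a log2 fold change is its size divided by the square root of F. Single values were compared by two-sided exact permutation tests. The alternatives were library size only, upper quartile scaling, DESeq2 1.42.0, no filter, a minimum of 10 counts in each library, no class removed, a block for replicate number or for parent cross, the study's limma pipeline (limma 3.58.1, quantile normalization, prior count of 2) with and without quality weights, and each library left out. Leaving out controls 1 and 4 together, and removing from every library its loess trend with GC content (longest GENCODE vM21 transcript of the symbol, found for 98.6% of the genes tested and for all 40) and length, were added after the data were seen. The edgeR test was tried on simulated counts. The removal of trends was tried on simulated counts with a GC trend put into controls 1 and 4, without a length trend, so removal of a length trend was not tested.

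The 40 genes, the other gene lists and the tests were chosen with earlier results of these data known. The genes given with full values are 10 of each phase listed beforehand, those with an unadjusted p under 0.05 or with groups that do not overlap, and the highest and lowest log2 fold change of each phase. Of each other list the 3 genes of lowest p were named, and 1 more gene of the replication and G1 lists each (Dut, Cdkn2d) to complete a count, after its value was seen. Positions and promoters are from RefSeq, GRCm38.p6, the build of mm10, and 25275 of the 27179 genes were found there. Promoters of Aurkb, Ccna2, Ccne2, Foxm1, Gins1, Gins2, Kif20a, Mcm4 and Tpx2 were not used here. In the labels same-numbered libraries share no origin, except f/f 3 and control 3, which share a cross. The replicate numbers were not taken to pair the libraries, since the correlations of the deviations of same-numbered libraries were -0.14, 0.06 and -0.42.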

Additional observations from a re-analysis of the deposited data

Results flagged for a closer look

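In the 4 controls, the gap of the highest or lowest library to its nearest neighbour, divided by the range of the 4, was above Dixon's critical value for 13 of the 40 genes and for the summed level of the S phase genes. Chance flags about 1 in 20 groups, and 43 groups were looked at. All were read from the same 4 libraries, so they are not independent, and 1 deviating library can flag many genes together. Control 4 was the high library in 13 of the 14 cases. Of the S phase genes, the ratio of the gap to the range was 0.900 for Cdc6, 0.864 for Mcm3, 0.863 for Mcm7, 0.831 for Tk1 and 0.932 for Ccne1, and it was 0.856 for the summed level of all 18. Of the G2 and M phase genes, it was 0.861 for Ccnb2, 0.856 for Cdk1, 0.892 for Aurka, 0.891 for Aurkb, 0.919 for Cenpa, 0.910 for Ube2c and 0.845 for Foxm1. For Tpx2 it was 0.877, and there control 1 was the low library. Without control 4, the unadjusted edgeR p was under 0.05 in 1 of 18 S phase genes and 1 of 22 G2 and M phase genes, against 4 and 3 with it. Of all genes, in either direction, it was so in 961 of 15065 without control 4 and in 1459 of 15098 with it. Control 4 was the only library of its cross, so the library and the cross cannot be told apart. Its day of collection is not in the labels, so a difference between days cannot be told apart either.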

How the results depend on the processing

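The number of S phase genes with an unadjusted p under 0.05 was 4 and became 9 with DESeq2, 9 with no filter on low counts, 1 with the replicate block, 0 with the parent cross block, 17 with the limma pipeline, 8 without controls 1 and 4, 13 after the GC and length trends were removed, and 0 to 9 when each library was left out. The number of G2 and M phase genes was 3 and became 7, 1, 0, 18, 11, 6 and 0 to 5 under DESeq2, the replicate block, the parent cross block, the limma pipeline, without controls 1 and 4, after the trends were removed and with each library left out. Both became 0 without f/f 1 and also without f/f 2, and 1 without control 4. S phase genes were 9 without control 2 and also without control 3, and G2 and M phase genes 5 without f/f 3. Of all genes, 1624 of 15012 were so without control 2, 2369 of 15003 without control 3 and 1348 of 14995 without f/f 3. The all-gene number was 1459 of 15098 with edgeR. It was 1895 with DESeq2, 577 with the replicate block, 308 with the parent cross block and 4962 with the limma pipeline. With no filter it was 1800 of 21262, without controls 1 and 4 it was 2614 of 14968, and after the trends were removed 2037 of 14888. The limma pipeline called 10 S phase and 4 G2 and M phase genes, and every other alternative 0. Over all genes the calls were 0 with edgeR (1459 at an unadjusted p under 0.05), 72 with DESeq2 and 1 with the replicate block. They were 2246 with the limma pipeline and 0 with that pipeline without its quality weights. They were 2 without controls 1 and 4, and 0 to 2 with each library left out. The medians of the S phase and the G2 and M phase genes, -0.54 and -0.35, were -0.13 and -0.16 with the parent cross block, -0.32 and -0.21 with the replicate block and -0.32 and -0.23 without control 4. Scaling by library size only moved the median of all genes to 0.09. In the labels same-numbered libraries share only their number, except f/f 3 and control 3, which also share a cross, so calls lost under the replicate block are not read as weaker effects.

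Of 25 single genes, 16 kept their direction in every alternative. With the parent cross block the log2 fold change was 0.10 for Aurka, 0.039 for Cdc20, 0.060 for E2f1 and 0.065 for Mcm2. Without quality weights in limma it was 0.011 for Ccne2, 0.12 for Hells, 0.17 for Mki67 and 0.19 for Top2a. With library size only it was 0.047 for Hells and 0.015 for Top2a, and for Hells 0.017 with upper quartile scaling and 0.0060 with at least 10 counts in every library. With each library left out in turn, Ccne2 ran from -0.26 to 0.16, Hells from -0.21 to 0.27, Mki67 from -0.35 to 0.15 and Top2a from -0.23 to 0.17. Cenpf, at 0.01, was -0.023 with DESeq2, -0.00054 with no filter, -0.091 with the replicate block, -1.21 with the parent cross block, -0.28 with the limma pipeline, -0.59 without controls 1 and 4, -0.28 after the trends were removed, and -0.23 to 0.39 with each library left out. The cause of these shifts was not tested. With 3 and 4 libraries, the spread among the controls limited which differences could pass a test.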
